A study of Mus musculus with 8 samples.

Results

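The phase II conjugation enzymes described here were the genes whose symbol began with Gsta, Gstm, Gstp, Gstt, Gstk, Gsto, Gstz, Mgst, Ugt1, Ugt2, Ugt3 or Sult. They numbered 66 of the 24526 genes in the files, with 21 sulfotransferases (Sult), 20 UDP-glucuronosyltransferases (Ugt), 22 soluble glutathione S-transferases (Gst) and 3 membrane-bound ones (Mgst). Their RNA was measured in liver and subcutaneous fat of male C57BL/6 mice, all fed a high-fat diet (HFD), in 4 groups of 2 libraries: WT liver, MKRN1-null liver, WT fat and MKRN1-null fat. The labels give a diet of 19 weeks begun at 6 weeks of age and an age of 24 weeks, which do not add up exactly, and the study's methods give a shorter diet. MKRN1 is an E3 ubiquitin ligase, and the gene was disrupted in the whole body of the null mice, which had been backcrossed to C57BL/6 and compared with WT littermates. Poly(A) RNA was sequenced, and levels are given in FPKM (fragments scaled to transcript length and library size), which divides by length and can be compared between genes. Values are listed for replicate 1 and then replicate 2. A p from limma, the test used here, rests on the spread between 2 replicates per group and on variance shared over all genes tested. It holds for these samples only.

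The libraries held 28.3 to 45.7 M fragments, estimated from coverage. Mkrn1 itself was at 9.42 and 10.1 FPKM in WT liver and 2.86 and 2.21 in MKRN1-null liver, and at 16.8 and 19.3 in WT fat and 4.58 and 2.90 in MKRN1-null fat. Each null library was thus below each WT library of its tissue. MKRN1-null fat replicate 2 stood apart. Its 5 skeletal muscle markers (Acta1, Ckm, Myh4, Tnnt3 and Mb) summed to 59583 FPKM, against 27.8 to 149 in the other fat libraries, and the leading results in fat are given with and without it. Adipocyte markers summed to 8374 to 13613 FPKM in the fat libraries, and hepatocyte markers to 52181 to 63516 in the livers and 5.73 to 24.0 in fat. Of the adipocyte markers, Cfd was at 1231 and 1271 FPKM in WT fat and 5077 and 5483 in MKRN1-null fat. Adipoq, Plin1, Lep and Cidec were each lowest in MKRN1-null fat replicate 2, at 1666, 439, 306 and 885 FPKM. The next lowest values, all in WT fat replicate 2, were 2873, 723, 1233 and 2274.

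Conjugation enzymes attach glutathione, glucuronic acid or sulfate to drugs, to reactive lipids and to the body's own hormones, bile acids and bilirubin, which makes these molecules easier to excrete. Glutathione S-transferases work in the cytosol, in mitochondria or in membranes. UDP-glucuronosyltransferases sit in the endoplasmic reticulum and use UDP-glucuronate, and sulfotransferases take sulfate from the cosubstrate PAPS in the cytosol. The liver is the main organ for all of them, and many respond to nuclear receptors and to the stress factor NRF2.

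In MKRN1-null liver the enzymes did not move as a block. The alpha-class Gsta1 and Gsta2, most of the mu-class genes, Mgst3, Ugt1a9 and Sult1c2 fell, whereas the sulfotransferases Sult2a8, Sult1d1 and Sult1b1 and the glucuronosyltransferase Ugt2a3 rose. The most abundant enzymes, Mgst1 and Gsta3, overlapped between the groups. Of the 66 genes, 45 reached 1 FPKM in at least 2 of the 4 liver libraries and entered the limma fit of log2(FPKM + 1), whose p was adjusted over all 10820 liver genes tested. At an adjusted p under 0.05, 13 of the 45 fell, against 17% of all genes tested, and 4 rose, against 2.51% of all genes tested. A second criterion, here called the study thresholds, was an unadjusted limma p up to 0.05 with an absolute log2 change of at least 0.58. The study set the same limits, but on a p combined from permutation-based tests of read counts. By these thresholds 11 were lower and 7 higher, where the shares over all genes were 13.4% and 2.26%. The median log2 change of the 45 was −0.05, and that of all genes tested was −0.17.

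The scaling of the libraries shifts these counts. After median-of-ratios scaling the median of all liver genes was 0.05 and 6 of the enzymes rose and 7 fell, where 5.22% of all genes tested rose and 7% fell. After quantile normalization the median was 0.03 with 5 enzymes rising and 7 falling, where 3.71% of all genes rose and 5.9% fell. The 7 that fell under all of these scalings were Gsta1, Gsta2, Gstm1, Gstm3, Mgst3, Sult1c2 and Ugt1a9, and the 3 that rose were Sult1b1, Sult1d1 and Ugt2a3. Leaving out any 1 liver library, which leaves a group with 1 library, lowered the number of calls among the enzymes and among all genes tested. Both fell furthest without MKRN1-null replicate 2, where of the enzymes only Gsta1 and Gstm3 were still called. Many of the 17 calls were lost in 1 or more of these fits.

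**Figure D1:**
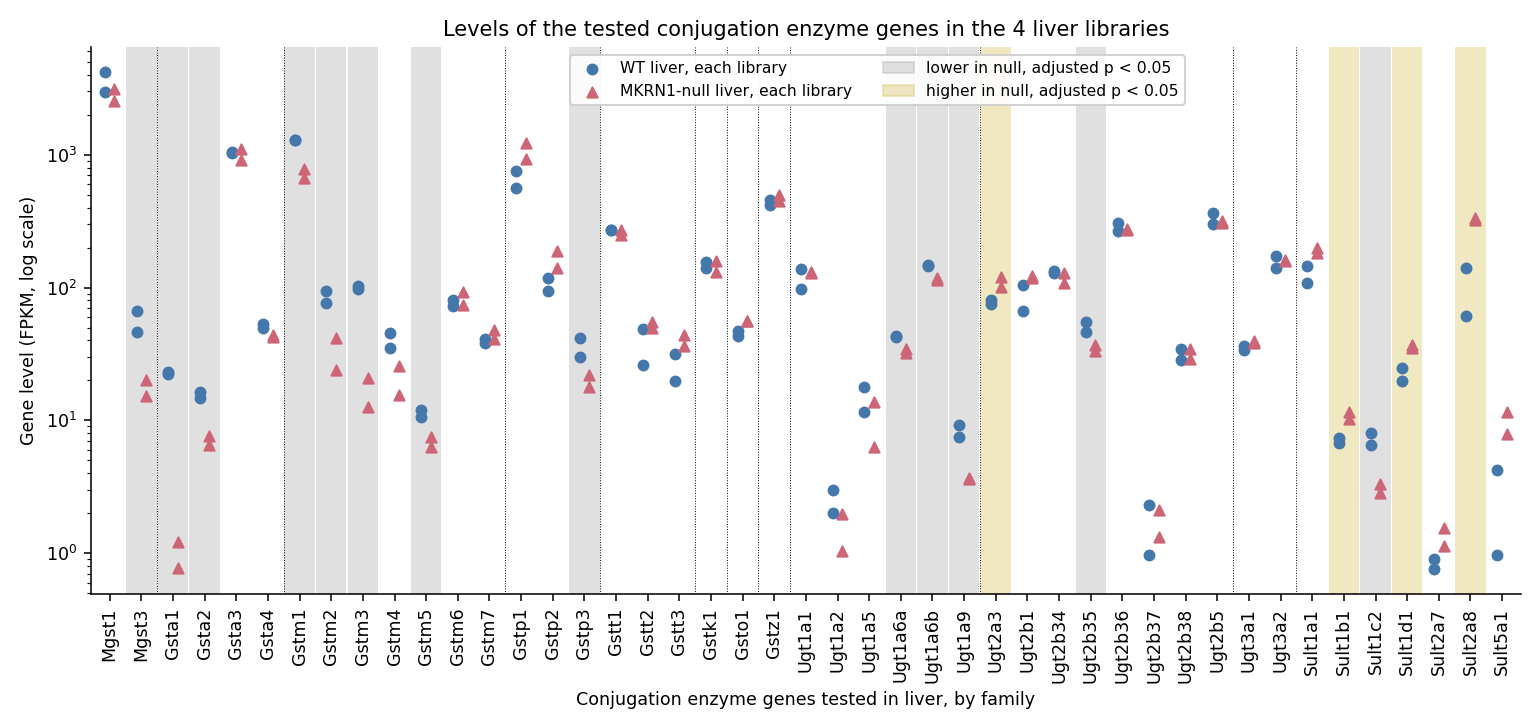
FPKM (log axis) of the 45 tested enzyme genes in the 4 liver libraries, ordered by family, with WT libraries as circles and MKRN1-null libraries as triangles. Grey bands mark the 13 genes that fell and yellow bands the 4 that rose at an adjusted p under 0.05. Most bands lie on the Gst and Ugt1 genes, and 3 of the 4 yellow ones lie on Sult genes.

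Markers of other liver cell types differed between the same libraries. Of the cholangiocyte markers, 4 of 5 fell (Krt19, Krt7, Epcam and Spp1), and the list summed to 209 to 252 FPKM in WT livers and 32.1 to 37.7 in null livers, of which Spp1 made up most. Stellate cell and fibroblast markers fell in 4 of 5 cases (Dcn, Col1a1, Col3a1 and Des), with sums of 148 to 201 and 56.8 to 60.2. Macrophage markers fell in 1 of 5 cases (Cd68), with sums of 64.3 to 141 and 69.3 to 74.2, and endothelial markers in 0 of 4, with sums of 26.3 to 41.4 and 17.7 to 21.3. By the study thresholds 3 of the 4 endothelial and 2 of the 5 macrophage markers were lower in MKRN1-null liver, against 13.4% of all genes tested. Hepatocyte markers rose in 2 of 6 cases (Cps1 and Serpina1a), with sums of 52181 to 58673 in WT and 62124 to 63516 in MKRN1-null liver. None of these markers was at 0 in liver. Adipocyte markers summed to 103 to 104 in WT and 9.70 to 38.1 in MKRN1-null liver. Of these 5 markers 2 were tested in liver, of which 1 fell and 1 had a log2 change above 0 and was not called. The part of these shifts in the enzyme values was not tested, and in whole tissue fewer cells of a type and less RNA per cell cannot be told apart.

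The steepest fall among the 45 genes tested in liver was that of Gsta1, an alpha-class transferase that reduces lipid peroxides and is known to be inducible. It lies on chromosome 9 from 78230669 to 78242683 (mm10, plus strand) next to its near copy Gsta2, from 78331020 to 78347145 on the minus strand. Gsta1 was at 23.0 and 22.2 FPKM in WT liver and at 1.21 and 0.77 in MKRN1-null liver. The WT mean was 22.8 times the null mean (log2 change −3.58 with a standard error of 0.13, limma adjusted p = 0.00313), and the groups were far apart. About 593 and 705 fragments stood behind the WT values and 32.3 and 21.4 behind the null values. Gsta2 was at 16.3 and 14.7 in WT and at 7.65 and 6.54 in MKRN1-null liver, a fall by 1.03 on the log2 scale (adjusted p = 0.0145), and this call was lost without MKRN1-null replicate 2 (adjusted p = 0.0819).

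The coding sequences of Gsta1 and Gsta2 were 97.5% identical, with 17 differing positions in 672 and a longest identical run of 196 bases, so that reads between them can be hard to assign. Their sum fell from 39.2 and 36.9 FPKM to 8.86 and 7.31 (log2 change −2.11, adjusted p = 0.00686). The 90 coding bases in which the pair differs most, at 6 positions shown in capitals (coding bases 578 to 667, GENCODE M21 on GRCm38), read 5′ to 3′:
Gsta1 (chr9:78242484-78242573, plus strand): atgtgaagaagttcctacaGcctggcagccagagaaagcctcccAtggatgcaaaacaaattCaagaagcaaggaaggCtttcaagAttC
Gsta2 (chr9:78331129-78331218, minus strand): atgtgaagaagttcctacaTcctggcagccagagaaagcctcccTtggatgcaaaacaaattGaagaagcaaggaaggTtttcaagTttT

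The other alpha-class genes passed neither criterion in liver. Gsta3, the main alpha-class transferase of mouse liver, was at 1026 and 1057 FPKM in WT livers, against 1102 and 916 in null livers, and the groups overlapped (adjusted p = 0.786). Gsta4, which detoxifies the lipid peroxidation product 4-hydroxynonenal, was at 53.3 and 49.7 in WT and 42.6 and 44.0 in MKRN1-null liver (log2 change −0.24 ± 0.08, adjusted p = 0.0973), and its log2 change was 0.02 after median-of-ratios scaling. Gsta3 supplied most of the summed level of the alpha class, which was 1119 and 1143 FPKM in WT livers, against 1154 and 967 in null livers.

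The 7 mu-class genes stand in one cluster of 149 kb on chromosome 3 (107895854 to 108044859). In liver 4 of them fell, against 17% of all genes tested, and Gstm4 passed the study thresholds only. Gstm3 changed most. It was at 98.3 and 103 FPKM in WT livers, against 20.8 and 12.5 in null livers (log2 change −2.56 ± 0.23, adjusted p = 0.0117), so both null libraries were far below either WT library. Gstm1, the most abundant mu-class enzyme, was at 1297 and 1280.3 in WT and 775 and 669.9 in MKRN1-null liver (log2 change −0.84 ± 0.11, adjusted p = 0.0176). It alone accounted for most of the fall of the summed mu-class level from 1647 and 1637 FPKM to 1011 and 843.

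Gstm2 was at 93.7 and 77.0 FPKM in WT livers, against 41.9 and 24.1 in null livers (log2 change −1.39 ± 0.28, adjusted p = 0.0347). Gstm5, the most divergent member of the class, was at 11.9 and 10.7 in WT and 7.54 and 6.32 in MKRN1-null liver (log2 change −0.64 ± 0.12, adjusted p = 0.0302). Both of these calls were lost under median-of-ratios and quantile scaling. Gstm4 was at 35.3 and 45.2 in WT and 25.9 and 15.6 in MKRN1-null liver (adjusted p = 0.0643), while Gstm6 and Gstm7 overlapped between the groups, at 72.6 to 91.9 and 38.4 to 48.0 FPKM. The direction of these 7 genes was the same under each scaling, with 5 below 0 and 2 above 0. Over all liver genes tested, 8253 of 10820 had a log2 change below 0 in the unscaled fit. Without MKRN1-null replicate 2 the calls of Gstm1, Gstm2 and Gstm5 were lost and that of Gstm3 was kept. The calls of Gstm1, Gstm2 and Gstm5 were also lost without WT replicate 1, that of Gstm2 without WT replicate 2 and that of Gstm5 without MKRN1-null replicate 1.

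Gstm1 and Gstm3 were the closest pair of the class in coding sequence, 89.5% identical with 69 differing positions in 657, with a longest identical run of 112 bases. The 90 coding bases with the most differences between them, 17 in number and in capitals (coding bases 268 to 357, GENCODE M21 on GRCm38), read 5′ to 3′:
Gstm1 (chr3:108016331-108016420, minus strand): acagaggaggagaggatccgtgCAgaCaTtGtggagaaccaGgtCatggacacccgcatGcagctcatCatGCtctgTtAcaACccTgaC
Gstm3 (chr3:107967578-107967667, minus strand): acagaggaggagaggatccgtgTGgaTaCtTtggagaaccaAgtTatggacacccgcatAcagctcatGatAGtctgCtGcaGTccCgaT

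**Figure D2:**
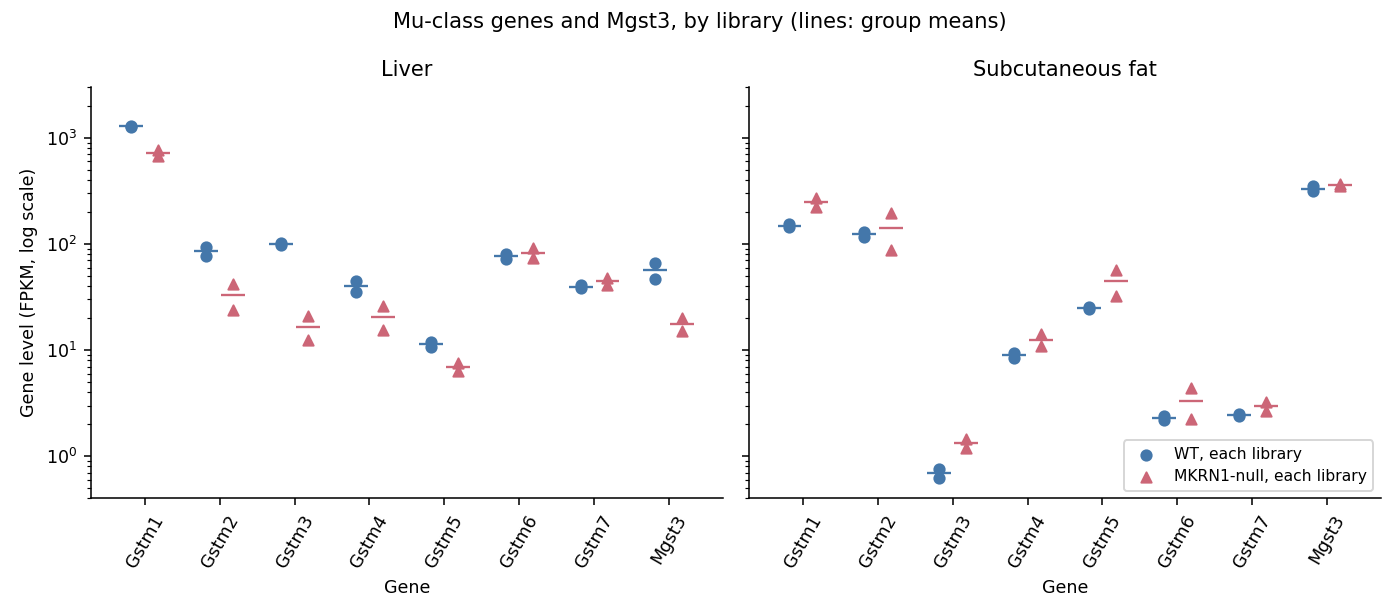
FPKM (log axis) of the 7 mu-class genes and of Mgst3 in liver (left) and subcutaneous fat (right), with each WT library as a circle, each MKRN1-null library as a triangle and group means as lines. In liver the null triangles of Gstm1 to Gstm5 and Mgst3 lie below the WT circles, and in fat none of these genes shows that order.

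The pi class split. Gstp1 and Gstp2, which are high in male mouse liver, were higher in MKRN1-null liver by the study thresholds only. Gstp1 was at 562 and 757 FPKM in WT livers, against 927 and 1230.0 in null livers (log2 change 0.71 ± 0.21, adjusted p = 0.0743), and Gstp2 at 94.9 and 118 against 141 and 189 (log2 change 0.62 ± 0.18, adjusted p = 0.0742). For both genes the null libraries were above the WT libraries, with a wide spread inside each pair. Gstp3, in the same 23.9 kb of chromosome 19, fell from 41.8 and 30.1 to 22.1 and 17.99 (log2 change −0.80 ± 0.19, adjusted p = 0.0488), a call lost under median-of-ratios and quantile scaling and without WT replicate 1 or any one null library.

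Gstp1 and Gstp2 are 98.1% identical in coding sequence, with 12 differing positions in 633, and summed to 657 and 875 FPKM in WT livers, against 1069 and 1419 in null livers (adjusted p = 0.0748). Their first 90 coding bases hold 6 of the 12 differences (in capitals), as many as any stretch of that length (GENCODE M21 on GRCm38, the intervals including introns), and read 5′ to 3′:
Gstp1 (chr19:4037344-4037863, minus strand): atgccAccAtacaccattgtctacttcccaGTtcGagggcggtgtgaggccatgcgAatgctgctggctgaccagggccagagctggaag
Gstp2 (chr19:4041638-4042165, minus strand): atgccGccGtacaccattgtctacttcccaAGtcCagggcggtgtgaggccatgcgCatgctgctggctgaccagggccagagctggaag

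None of the theta, kappa, omega and zeta genes was called in liver. Gstt3, a theta-class gene, passed the study thresholds at 31.6 and 19.7 FPKM in WT livers, against 43.9 and 36.4 in null livers (adjusted p = 0.115), and its neighbour Gstt1 overlapped between the groups at 248 to 274. Gstk1, the mitochondrial kappa-class enzyme, was at 130.1 to 158, and Gstz1, which also serves tyrosine breakdown as maleylacetoacetate isomerase, at 416 to 496, both with overlapping groups. Gsto1, an omega-class enzyme with dehydroascorbate reductase activity, was at 47.3 and 43.0 in WT and 56.0 and 56.2 in MKRN1-null liver (adjusted p = 0.0655), and was called higher after median-of-ratios and quantile scaling.

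Among the membrane-bound transferases, Mgst3 fell and Mgst1 did not pass. Mgst3, which has glutathione transferase and peroxidase activity, was at 66.6 and 46.5 FPKM in WT livers, against 19.97 and 15.1 in null livers (log2 change −1.62 ± 0.22, adjusted p = 0.0182), without overlap, and the call was lost without MKRN1-null replicate 2. Mgst1, a stress-activated enzyme of the endoplasmic reticulum and outer mitochondrial membrane, was the most abundant of the 66 genes and carried on average 33.2% of their summed FPKM in liver. Its libraries overlapped, at 2974 and 4182 in WT and 3130 and 2546 in MKRN1-null liver (adjusted p = 0.312). Mgst2 was listed at 0 in all 4 livers.

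Of the UDP-glucuronosyltransferases, 16 of 20 were tested in liver, 4 fell and 1 rose, against the 17% and 2.51% of all genes tested. The 8 Ugt1 genes lie over one stretch of 165 kb on chromosome 1 (88055411 to 88220002). Each has its own first exon and all share their last exons, so a whole-transcript FPKM partly divides shared reads. The exons with a start that no other Ugt1 gene has, called first exons here, leave out that shared part. For Ugt1a6a and Ugt1a6b they are more than 1 exon. Their coverage was put on the FPKM scale. Ugt1a9, which conjugates bulky phenols, was at 9.30 and 7.53 FPKM in WT livers, against 3.64 and 3.67 in null livers (log2 change −1.01 ± 0.12, adjusted p = 0.0159). On its first exon alone it was at 14.9 and 12.4 in WT and 5.25 and 5.43 in MKRN1-null liver, 2.56-fold lower in the null (log2 change −1.20, adjusted p = 0.0118). The call was lost without either MKRN1-null replicate.

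Ugt1a6a and Ugt1a6b, which conjugate small planar phenols, fell by less. By whole transcript Ugt1a6a was at 42.5 and 43.4 FPKM in WT livers, against 34.2 and 32.1 in null livers (adjusted p = 0.0416), and Ugt1a6b at 146 and 147 against 117 and 114 (adjusted p = 0.0430). Both calls were lost under median-of-ratios and quantile scaling and when any 1 library was left out. On the first exon the levels were 64.1 and 66.6 against 47.1 and 45.3 for Ugt1a6a (log2 change −0.49, adjusted p = 0.0231) and 73.4 and 72.9 against 51.4 and 53.2 for Ugt1a6b (log2 change −0.48, adjusted p = 0.0231). The whole-transcript FPKM of Ugt1a6b was above its first-exon level, and its annotated transcript ends at 88218998, before the 88220002 of the other Ugt1 genes. The part of that difference in annotation in its whole-transcript level was not tested.

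The first exons also set the order of the Ugt1 genes in liver. Ugt1a1, the enzyme that conjugates bilirubin, led with 226 and 166 in WT and 196 and 202.4 in MKRN1-null liver, and its groups overlapped (adjusted p = 0.875). It made up 48.8% to 54.9% of the summed first exons in WT and 60.7% to 63.7% in MKRN1-null liver. Ugt1a5 overlapped at 10.6 to 31.3, and Ugt1a2 was at 1.93 and 1.15 in WT and 0.881 and 0.558 in MKRN1-null liver (adjusted p = 0.107). The whole cluster summed to 357 and 310.3 FPKM in WT livers, against 302 and 287 in null livers (log2 change −0.17, adjusted p = 0.274).

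Ugt1a6a and Ugt1a6b are shown because their first exons differ at only a few places. Over the whole coding sequence they were 98.4% identical, with 26 differing positions in 1596, and the 90 bases with the most differences (coding bases 271 to 360, 13 differences in capitals, GENCODE M21 on GRCm38) read 5′ to 3′:
Ugt1a6a (chr1:88138744-88138833, plus strand): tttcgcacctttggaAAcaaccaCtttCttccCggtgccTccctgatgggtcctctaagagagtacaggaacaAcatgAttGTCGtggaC
Ugt1a6b (chr1:88107212-88107301, plus strand): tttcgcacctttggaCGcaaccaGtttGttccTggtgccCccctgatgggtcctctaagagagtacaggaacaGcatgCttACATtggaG

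**Figure D3:**
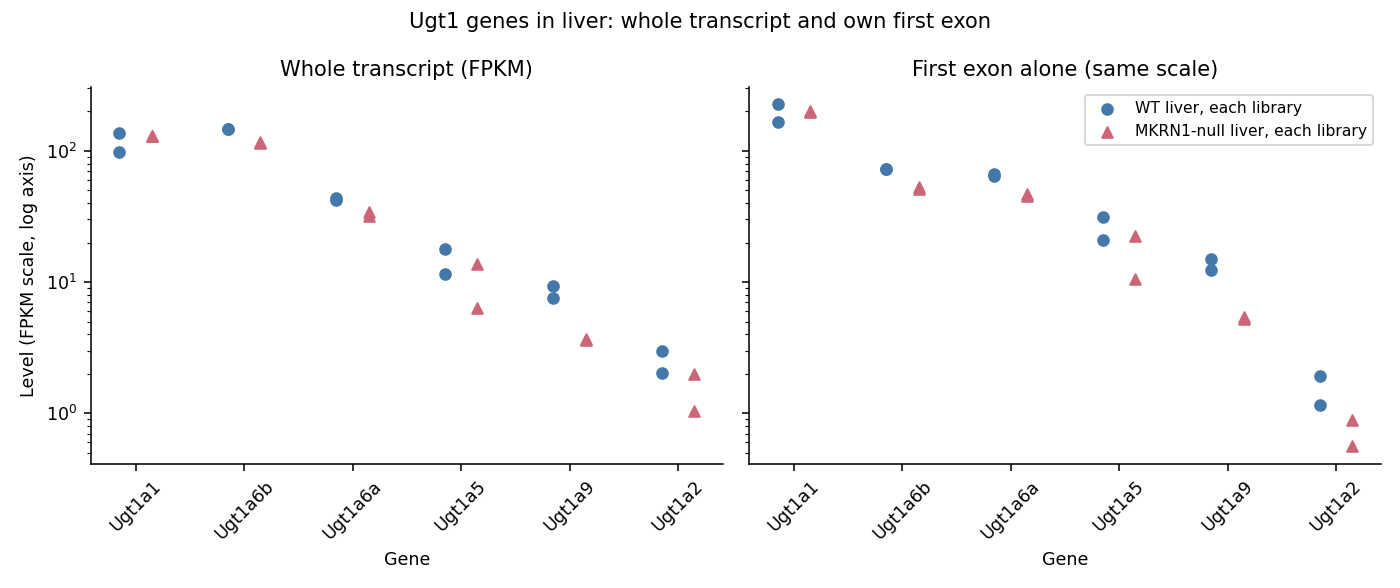
Levels of 6 Ugt1 genes in the 4 liver libraries on a log axis, by whole-transcript FPKM (left) and by the coverage of each gene's own first exon on the same scale (right), with WT as circles and MKRN1-null as triangles. Ugt1a6a, Ugt1a6b and Ugt1a9 are lower in the null libraries by both measures, and Ugt1a1 overlaps in both.

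The Ugt2 genes, which conjugate steroids, bile acids and drugs, summed to 923 and 1077 FPKM in WT livers, against 985 and 1021 in null livers. Ugt2a3 rose from 75.7 and 80.2 to 102 and 120.0 (log2 change 0.50 ± 0.11, adjusted p = 0.0418), and the call was lost when any 1 library was left out. Ugt2b35 fell from 46.7 and 54.9 to 33.3 and 36.9 (log2 change −0.52 ± 0.11, adjusted p = 0.0424), which was lost with any 1 library left out and under median-of-ratios and quantile scaling. The abundant Ugt2b5 overlapped at 303 to 367 FPKM, as did Ugt3a2, which uses other UDP-sugars than UDP-glucuronate, at 142 to 171.

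Of the 21 sulfotransferases, 7 were tested in liver, of which 3 rose, 1 fell and 6 had a log2 change above 0. Of all genes tested 2.51% rose, 17% fell and 2567 of 10820 had a log2 change above 0. The summed Sult level went from 248 and 286 FPKM in WT to 583 and 578 in MKRN1-null liver. Sult2a8, a hepatic sulfotransferase of bile acids on chromosome 7 (14410686 to 14446587), supplied most of that difference. It was at 61.5 and 139 FPKM in WT livers, against 322 and 335 in null livers (3.27-fold higher, log2 change 1.81 ± 0.39, adjusted p = 0.0398). The null libraries were close together and above both WT libraries, which differed from each other by more than the null pair. The call was lost under quantile normalization and without either MKRN1-null replicate.

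Sult1d1, which acts on catecholamines, rose from 24.7 and 19.7 to 35.0 and 37.1 FPKM (log2 change 0.68 ± 0.13, adjusted p = 0.0311). Sult1b1, which acts on thyroid hormones and phenols, rose from 6.80 and 7.36 to 11.6 and 10.3 (log2 change 0.56 ± 0.10, adjusted p = 0.0283). Both calls were lost without either MKRN1-null replicate, and that of Sult1b1 also without WT replicate 1. Sult1c2 went the opposite way, from 8.04 and 6.49 to 3.33 and 2.84 (log2 change −1.01 ± 0.13, adjusted p = 0.0178), a fall also lost without either MKRN1-null replicate.

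Sult1a1, the main phenol sulfotransferase, and Sult5a1, whose substrates are poorly known, passed the study thresholds only. Sult1a1 was at 145 and 108 FPKM in WT livers, against 198 and 184 in null livers (log2 change 0.61 ± 0.16, adjusted p = 0.0595). Sult5a1 was at 0.965 and 4.203 in WT and 11.6 and 7.87 in MKRN1-null liver (log2 change 1.72 ± 0.49, adjusted p = 0.0689), and its WT libraries lay far apart.

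**Figure D4:**
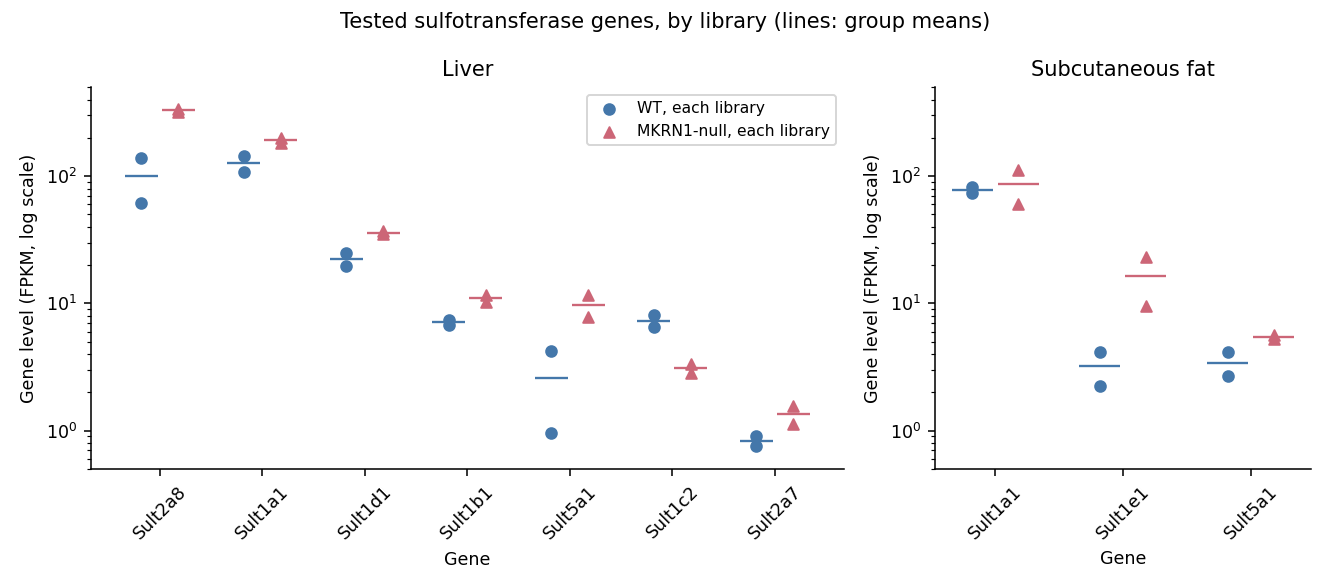
FPKM (log axis) of the sulfotransferase genes tested in liver (left, 7 genes) and in fat (right, 3 genes), with each WT library as a circle, each MKRN1-null library as a triangle and group means as lines. The null triangles of 6 of the 7 liver genes lie above the WT circles, with Sult1c2 the exception, and Sult1e1 and Sult5a1 show the same order in fat.

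Of the 66 genes, 21 were too scarce to test in liver, none above 0.484 FPKM in any library, and 12 of these were listed at 0 in all 4 livers. They included Sult2a1 to Sult2a6 and Sult3a1, genes known for higher levels in female mouse liver, as well as Ugt2a1 and Ugt2a2. Sult1e1, the oestrogen sulfotransferase, was at 0.290 and 0.0642 in WT and 0.0255 and 0.0246 in MKRN1-null liver, which rested on 11, 3, 1 and 1 fragments, and no change could be read at that depth.

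Of the 66 genes, 58 had an entry in the RefSeq promoter table (GRCm38.p6), and the 250 bases before each start were searched on both strands for 1 short motif. The core of the antioxidant response element bound by NRF2, TGACNNNGC, occurred in 10.2% of all 32851 promoters and in 4 of the 58 genes. Among these, Gstm5 fell in liver and Gsta3, Gstm7 and Mgst1 did not pass. The 60 bases around each match are given because they show which enzymes carry these letters close to the start, with the match in capitals (in Mgst1 on the reverse strand). A match is letters in a window and is not evidence of binding. RefSeq lists 2 starts for Gstm7, and its match lies before the downstream one, in a stretch that overlaps the transcript measured here (which starts at 107931745 on the minus strand):
Gsta3 (chr1:21240440-21240499, plus strand, match beginning 121 bases before the start): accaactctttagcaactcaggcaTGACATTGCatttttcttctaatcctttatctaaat
Gstm5 (chr3:107895788-107895847, plus strand, match beginning 42 bases before the start): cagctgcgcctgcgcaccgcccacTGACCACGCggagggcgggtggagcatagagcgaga
Gstm7 (chr3:107931708-107931767, minus strand, match beginning 129 bases before the start): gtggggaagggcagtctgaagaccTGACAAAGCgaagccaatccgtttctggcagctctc
Mgst1 (chr6:138140447-138140506, plus strand, match beginning 56 bases before the start): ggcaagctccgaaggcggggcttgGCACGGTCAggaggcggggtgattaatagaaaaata

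In subcutaneous fat 26 of the 66 genes were tested by limma, and 0 were called. The glutathione S-transferases were well expressed there, whereas Ugt2 and most Ugt1 and Sult genes were close to absent. Of the genes with a mean of at least 1 FPKM, 23 reached it in both tissues, 22 in liver only and 3 in fat only (Mgst2, Sult1e1 and Ugt1a7c). The 10 Ugt2 genes together summed to 0.13 to 0.24 FPKM in fat. With p adjusted over 12162 genes, limma called 0 genes in fat (0% of all genes tested), and 2 of the 26 enzymes and 784 of all genes had an unadjusted p under 0.05. Both passed the study thresholds as higher, against 0.707% of all genes that were higher and 5.35% that were lower. The enzymes' median log2 change was 0.20, against −0.20 over all genes.

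Sult1e1, which inactivates oestrogens and is known in adipose tissue, was at 2.23 and 4.18 FPKM in WT fat and 23.3 and 9.501 in MKRN1-null fat (5.12-fold higher, log2 change 1.97 ± 0.49, adjusted p = 0.68). About 128 and 241 fragments stood behind the WT values. The groups did not overlap. Without the library that held muscle RNA the log2 change was 2.57, without MKRN1-null replicate 1 it was 1.36 and without WT replicate 2 it was 2.31. Each of these fits leaves a group with 1 library. Without MKRN1-null replicate 1 the only null is the muscle-bearing library. Gsta4 was at 10.3 and 10.9 in WT and 16.7 and 17.9 in MKRN1-null fat (log2 change 0.66 ± 0.21, limma adjusted p = 0.68). Its log2 change was 0.61 without the muscle-bearing library and 0.71 without MKRN1-null replicate 1.

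The mu-class genes all had a log2 change above 0 in fat, also after median-of-ratios and quantile scaling, and none was called. In TPM, Gstm2 was at −0.03. Over all fat genes tested, 3246 of 12162 had a log2 change above 0 in the unscaled fit. Gstm1 was at 153 and 144 FPKM in WT fat, against 273 and 224 in null fat (log2 change 0.73 ± 0.29, adjusted p = 0.68). Gstm3 was scarce, at 0.753 and 0.627 in WT and 1.45 and 1.21 in MKRN1-null fat. Gstm2 overlapped, at 131 and 117 in WT and 194 and 87.6 in MKRN1-null fat. Its estimate changed sign to −0.49 when MKRN1-null replicate 1 was left out, which leaves the muscle-bearing library as the only null. Gstm5 was at 57.1 in the muscle-bearing library against 24.6 to 32.3 in the other 3.

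All 3 endothelial markers tested in fat were lower past the study thresholds, against 5.35% of all genes tested. The list summed to 138 and 184 FPKM in WT fat, against 91.1 and 46.3 in null fat, lowest in the muscle-bearing library. Macrophage markers summed to 117 and 182 in WT and 113 and 27.1 in MKRN1-null fat. The part of these cell types in the enzyme values was not tested.

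Several other enzymes stood apart in the muscle-bearing library, and the part of its muscle RNA in their values was not tested. Mgst1 was at 678 and 716 in WT and 859 and 398 in MKRN1-null fat, and Gstz1 at 458 and 435 against 499 and 217, so that the null pair lay on both sides of WT. Ugt1a6b was at 35.1 and 31.5 in WT and 33.5 and 11.01 in MKRN1-null fat, and Gsto1 at 77.1 and 74.9 against 85.7 and 33.9. Gstp2 went up there, from 23.3 and 28.9 in WT and 31.3 in null replicate 1 to 85.0. Mgst3, in contrast, was level at 316 to 364 FPKM in all 4 fat libraries and higher there than in any liver. Leaving out the muscle-bearing library left MKRN1-null replicate 1 as the only null, and 0 enzymes were called. Leaving out MKRN1-null replicate 1 instead gave 14 called, 6 higher and 8 lower, where 8.86% of all genes tested were higher and 42.9% lower.

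Whether the change differed between liver and fat was tested as the interaction of tissue and genotype over the 9916 genes tested in both, of which 23 were enzymes. The fit took the 8 libraries as independent, although each liver library shares its label (such as WT-1) with a fat library. No enzyme was called (0% of all genes tested), and 7 had an unadjusted p under 0.05 by limma, as did 765 of all genes: Gstm1 to Gstm5, Mgst3 and Gsta4. Each of the 7 was lower in null liver relative to WT than in fat. The difference, liver minus fat, was −3.03 ± 0.32 on the log2 scale for Gstm3 (adjusted p = 0.0966), −1.72 ± 0.32 for Mgst3 (adjusted p = 0.345), −1.57 ± 0.26 for Gstm1 (adjusted p = 0.290) and −0.90 ± 0.19 for Gsta4 (adjusted p = 0.40). A block on the shared label gave a limma adjusted p of 0.262 for Gstm3 and 0.487 for Gstm1. Without MKRN1-null fat replicate 2 the fit called 5 enzymes, all with a lower change in liver (2.84% of all genes tested), and Gstm3 was then at −3.10 (adjusted p = 0.0196), Gstm1 at −1.72 (adjusted p = 0.0150), Gsta4 at −0.85 (adjusted p = 0.0321), Mgst3 at −1.75 (adjusted p = 0.0468) and Gstm5 at −0.99 (adjusted p = 0.0438). Without MKRN1-null fat replicate 1 it called 11, of which 6 were lower and 5 higher in liver, where 9.96% and 16.7% of all genes tested were.

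**Figure D5:**
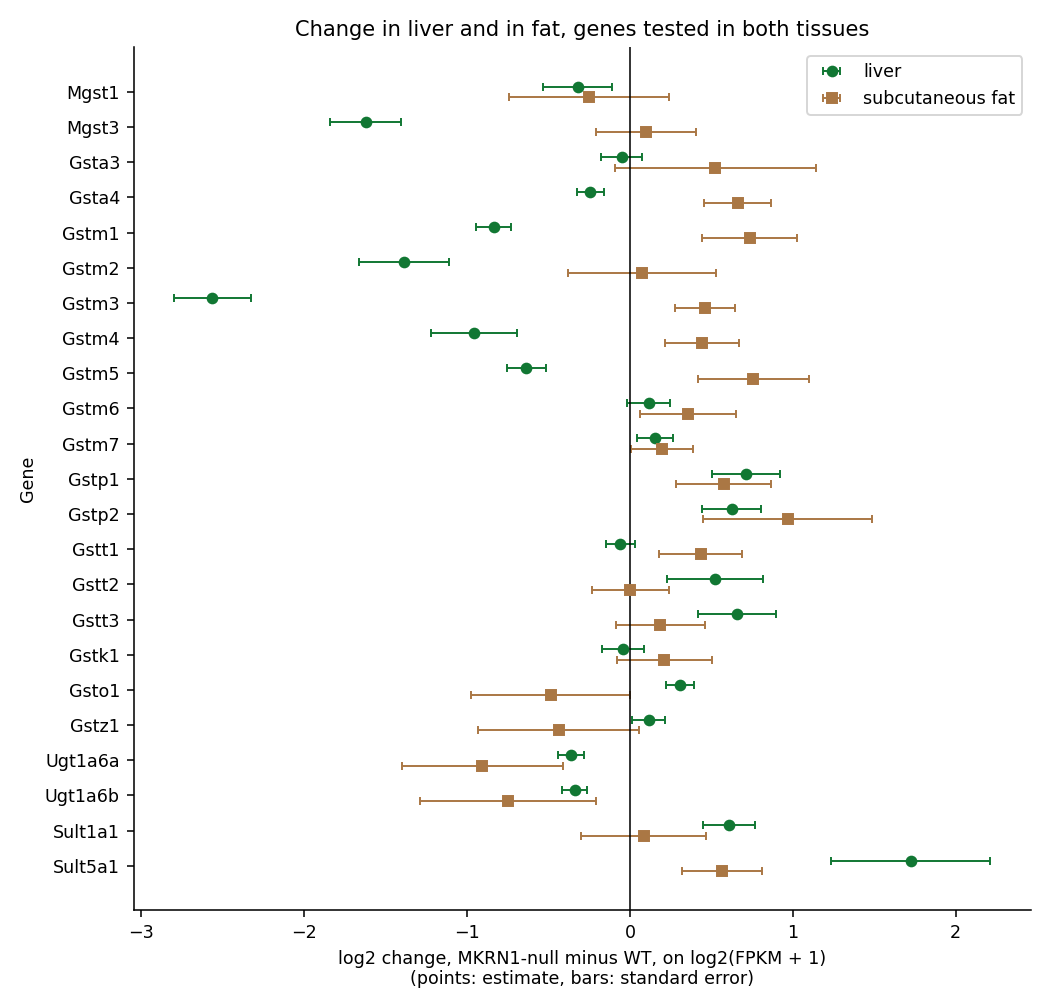
Change in log2(FPKM + 1), MKRN1-null minus WT, with its standard error for the 23 enzymes tested in both tissues, liver as green circles and fat as brown squares. Gstm1 to Gstm5 and Mgst3 lie to the left of 0 in liver and at or to the right of 0 in fat, and for most genes the bars are wider in fat.

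The genes that supply the cosubstrates were counted in the same liver fit, in which 2.51% of all genes tested rose and 17% fell. Of 15 glutathione supply genes tested, 2 rose and 4 fell. Gss, glutathione synthetase, was at 62.6 and 64.1 FPKM in WT livers, against 37.2 and 34.2 in null livers (adjusted p = 0.0135), Gclc, the catalytic subunit of the rate-limiting glutamate-cysteine ligase, at 117 and 160.4 against 69.6 and 53.6 (adjusted p = 0.0272), and Ggct fell as well. Ahcy and Gnmt of the methionine cycle rose, from 390.5 and 384 to 803 and 787 and from 761 and 778 to 1383 and 1354 (adjusted p = 0.00977 and 0.0140).

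For glucuronidation, 2 of 7 supply genes fell and none rose. Ugdh, which makes UDP-glucuronate, was at 83.7 and 85.5 FPKM in WT livers, against 38.7 and 31.1 in null livers (log2 change −1.26 ± 0.12, adjusted p = 0.0128), and Pgm2 fell from 4.43 and 3.55 to 1.63 and 1.29. For sulfation, 1 of 7 rose and 1 fell. Slc26a1, a sulfate transporter, was at 18.4 and 17.5 in WT and 55.5 and 57.8 in MKRN1-null liver (3.15-fold higher, adjusted p = 0.00577), while Papss1, a PAPS synthase, fell from 7.81 and 8.76 to 4.23 and 4.17 (adjusted p = 0.0150).

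Of 9 export transporter genes tested in liver none was called. The list was not limited to transporters of conjugates. In it 2 passed the study thresholds as lower, where 13.4% of all genes tested did. These were Abcb4 at 85.5 and 104 against 69.9 and 48.2 FPKM and Abcb1a at 3.29 and 1.39 against 0.700 and 0.582. Of 5 genes that remove conjugate groups, Gusb, the beta-glucuronidase, and Arsb fell and Acy1 rose. Gusb went from 19.8 and 17.2 to 9.16 and 8.85 (adjusted p = 0.0138). Among 19 other conjugating and hydrolysing enzymes 4 rose and 2 fell, against 2.51% and 17% of all genes tested. Ces2a, a carboxylesterase, rose from 46.3 and 50.7 to 101.2 and 117, Inmt, a methyltransferase, from 298 and 306 to 552 and 629, and Nat8 from 6.44 and 8.04 to 15.6 and 14.7, whereas Nqo1, a quinone reductase and NRF2 target, fell from 9.26 and 7.43 to 2.73 and 2.11 (adjusted p = 0.0137).

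Of 17 receptors and partner factors tested in liver, 1 rose and 1 fell. Nfe2l2, which encodes NRF2, was at 46.9 and 51.0 FPKM in WT livers, against 32.2 and 29.7 in null livers (log2 change −0.64 ± 0.09, adjusted p = 0.0191), and Hnf4a, a hepatocyte nuclear receptor, at 112 and 97.5 against 145 and 158 (log2 change 0.53 ± 0.11, adjusted p = 0.0355). Of 9 best known receptor targets 4 fell and 1 rose. Srxn1, an NRF2 target, fell from 34.6 and 35.7 to 12.9 and 9.33 (adjusted p = 0.0128), and Cyp3a11, a target of the receptor PXR, from 583 and 601 to 157 and 193 (adjusted p = 0.00914). Cyp2b9 fell from 149 and 49.2 to 11.2 and 13.4, and Cyp1a2, a target of the aryl hydrocarbon receptor, rose from 67.1 and 83.1 to 158 and 216 (adjusted p = 0.0203). Over all 88 of these supporting genes 10 rose and 16 fell, with a median log2 change of −0.18 beside −0.17 for all genes, and after median-of-ratios scaling 18 rose and 10 fell. The shares over all genes tested were 2.51% rising and 17% falling, and 5.22% and 7% after that scaling. Their number of calls changed when 1 library was left out and was lowest without MKRN1-null replicate 2, as it was over all genes tested. In fat none was called, with 1 higher and 2 lower past the study thresholds, against 0.707% and 5.35% of all genes tested.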

How the data were processed

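Per the labels and the study's methods, poly(A) RNA of 8 libraries (2 per tissue and genotype) was sequenced. The authors deposited StringTie 1.3.3b transcript files made after HISAT2 alignment to mm10, which give coverage, FPKM and TPM, whereas the methods describe TopHat2 and Cufflinks. FPKM was summed per gene symbol, and 62 of 24532 Entrez identifiers had no symbol. Depth was taken as coverage over FPKM for read pairs of 202 bases, a length inferred from the values (33.5% of 25316 scarce values came out whole within 0.05 fragments, against 10% if uniform).

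Each tissue was fitted separately with limma 3.58.1 (R 4.3.3, trended variance) on log2(FPKM + 1) over genes with FPKM of at least 1 in 2 of 4 libraries, and a call was a Benjamini-Hochberg adjusted p under 0.05. FPKM are not counts, so the study's own test on read counts was not used. The fold changes understate those of scarce genes, and the code was tested on simulated data. Identity came from global alignment of GENCODE M21 coding sequences (Biopython 1.88). Alternatives were the pseudocount, the filter, TPM, scaling, the variance trend, pooled tissues, summed neighbours, first exons, the replicate block and leaving out each library.

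Named enzymes were those past either criterion in either tissue, those called for the difference between tissues, the most abundant of each family and their near-identical neighbours. Supporting genes were up to 4 per list by p. Gclc, Mgst2 and Sult2a1 to Sult2a6 were named after their values were seen. One promoter motif is not reported here. The enzymes and lists were chosen with earlier results of these data known.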

Additional observations from a re-analysis of the deposited data

How the results depend on the processing

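Of the values for single genes and summed families under the alternatives, 687 stayed on their side of the threshold or within the replicate spread, 90 lost the call, 27 gained it, 1 moved and 1 reversed. Of the 687, 30 single-gene values that were called in neither fit changed sign, to between −0.36 and 0.30, such as Gsta3 in fat (−0.32) and Sult1a1 in fat (−0.36) without MKRN1-null fat replicate 1 and Mgst1 in fat (0.30) without MKRN1-null fat replicate 2. The reversed one, called after the change of sign, was Gstm2 in fat, at −0.49 without MKRN1-null fat replicate 1 and 0.64 without MKRN1-null fat replicate 2. Without the filter on low FPKM, 0 enzymes and 0 supporting genes were called in liver (24 of 24526 genes were). There 11 enzymes and 1478 of all genes passed the study thresholds, and 2 enzymes and 125 of all genes were called for the difference between tissues. Fitting all 8 libraries together called 6 enzymes, 9 supporting genes and 227 of all 10820 genes in liver. In fat 5 enzymes and 1405 of all 12162 genes then passed the study thresholds. Quantile normalization gave 8 enzymes and 616 genes there, and median-of-ratios scaling 7 and 646.

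Leaving out 1 library gave 2 to 14 enzymes called in liver and 3 to 29 supporting genes, lowest without MKRN1-null replicate 2. In liver 16 to 18 enzymes passed the study thresholds. In fat 0 to 14 were called and 1 to 13 passed the study thresholds, and 0 to 11 were called for the difference between tissues, in each case highest without MKRN1-null fat replicate 1, which leaves the library with muscle RNA as the only null. The lone library was then assumed to vary like the other group.

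With the replicate number as a block, 19 enzymes were called in liver (8 higher, 11 lower, against 2.16% and 11.6% of all genes). So were 25 supporting genes, against 1492 of all 10820 genes. In fat 1 enzyme was called (Sult1e1, higher, limma adjusted p = 2.81e-05, against 1.29% of all genes). There 4 enzymes and 1438 of all 12162 genes passed the study thresholds. No enzyme and none of all 9916 genes was called for the difference between tissues. For the difference between tissues the block was genotype with replicate number. Over genes, the log2 difference of replicate 1 from replicate 2 in WT correlated with that in MKRN1-null libraries at 0.0067 in liver and 0.113 in fat. The same difference in liver correlated with that in fat at 0.080 in WT and 0.092 in MKRN1-null mice. With 2 pairs the WT and MKRN1-null samples share only a number. The 21 enzymes not tested in liver were at or under 0.484 FPKM in every library.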
